A study of Rattus norvegicus with 12 samples.

Results

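The genes described here encode extracellular matrix proteins of the heart and the proteins by which cardiac fibroblasts make, remodel and bind that matrix. A list of 40 gene symbols was matched to the annotation of the array, and each gene was read from 1 probe set, that with the highest mean signal. A probe set was found for 39 of the 40 genes, the exception being Thbs1, and all 39 passed the filter on low signals, out of 10082 named genes and 18625 probe sets that were tested. The samples were ventricular cardiomyocytes in primary culture, isolated from Wistar rats aged 1 day and parted from cardiac fibroblasts by how fast the cells attach to a dish. Cells had 24 h in OPTI-MEM, a reduced-serum medium, before a 3 h exposure, and all 8 groups came from such cultures. The groups were vehicle (ethanol), cortivazol (CVZ), corticosterone (COR) and aldosterone (ALD), with 2 arrays each, 1 from a first and 1 from a second experiment, and RU486, CVZ+RU486, COR+RU486 and ALD+RU486, pretreated with 10 µM RU486, with 1 array each, all from the second experiment. That gave 4 arrays in the first experiment and 8 in the second. The labels do not give the ligand doses, and nothing in them says whether the experiments were separate cell preparations, so the p-values reflect spread among single arrays, which may be technical.

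In the heart, fibroblasts make most of the interstitial matrix, whose fibrils are built from collagens and coated by proteoglycans, while a basement membrane wraps each myocyte. Cultures of neonatal cardiomyocytes usually keep some non-myocytes, because separation by adhesion is incomplete, and matrix transcripts are a usual sign of them. CVZ is a synthetic agonist selective for the glucocorticoid receptor, COR is the natural glucocorticoid of the rat, ALD is the natural mineralocorticoid, and RU486 blocks the glucocorticoid receptor. Glucocorticoids and mineralocorticoids are both known to act on cardiac matrix genes over longer times, mineralocorticoids being tied to fibrosis.

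Signals are given relative to the median of each array, which is 1, and differences are on the log2 scale after a pseudocount of 0.0696, with the standard error (SE) of a limma fit with the experiment as a block. The call threshold was a Benjamini-Hochberg adjusted p below 0.05 over all tested probe sets. Signals of different probe sets are not comparable with each other, so no gene is set against another. The 17 tested cardiomyocyte markers, such as Myh6 and Tnnt2, had signals of 62.1 to 402 on the 12 arrays, far above the median. Before division by the median, the array medians were 35.4 to 37.7 on the arrays with RU486 and 33.7 on the ALD array of the second experiment, against 21.1 to 28.7 on the others. The mean of the scaled values was 6.14 to 6.36 on arrays of the first experiment and 5.07 to 5.51 on those of the second, a difference in shape that division by the median does not remove.

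Most of these genes differed between the experiments, and few were called with any steroid. In the second experiment 34 of the 39 genes were called lower than in the first, 0 were called higher and 5 did not pass, with a median log2 difference of −0.90, or 1.86-fold lower. Over all tested probe sets 38.9% were called, 28.2% as lower and 10.7% as higher, with a median of −0.10. There was a single first and a single second experiment. The SE and p-values between them therefore rest on spread among arrays, not among experiments. The difference between experiments exceeded 2-fold for 19 genes, and 35 genes were lower in the second experiment in all 4 treatment pairs. The shares of all tested probe sets that met these rules were not computed. The median over the genes was −0.95 in the vehicle pair, −0.85 in the CVZ pair, −1.06 in the COR pair and −0.76 in the ALD pair, so each treatment showed it. For 34 genes the 4 arrays of the first experiment all lay above the 4 arrays of the second experiment without RU486, an arrangement found in 24.2% of all tested probe sets. In bulk RNA, fewer fibroblasts and less matrix RNA per cell cannot be told apart. Nor can they be told apart from any other difference between the experiments, technical ones included.

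**Figure D1:**
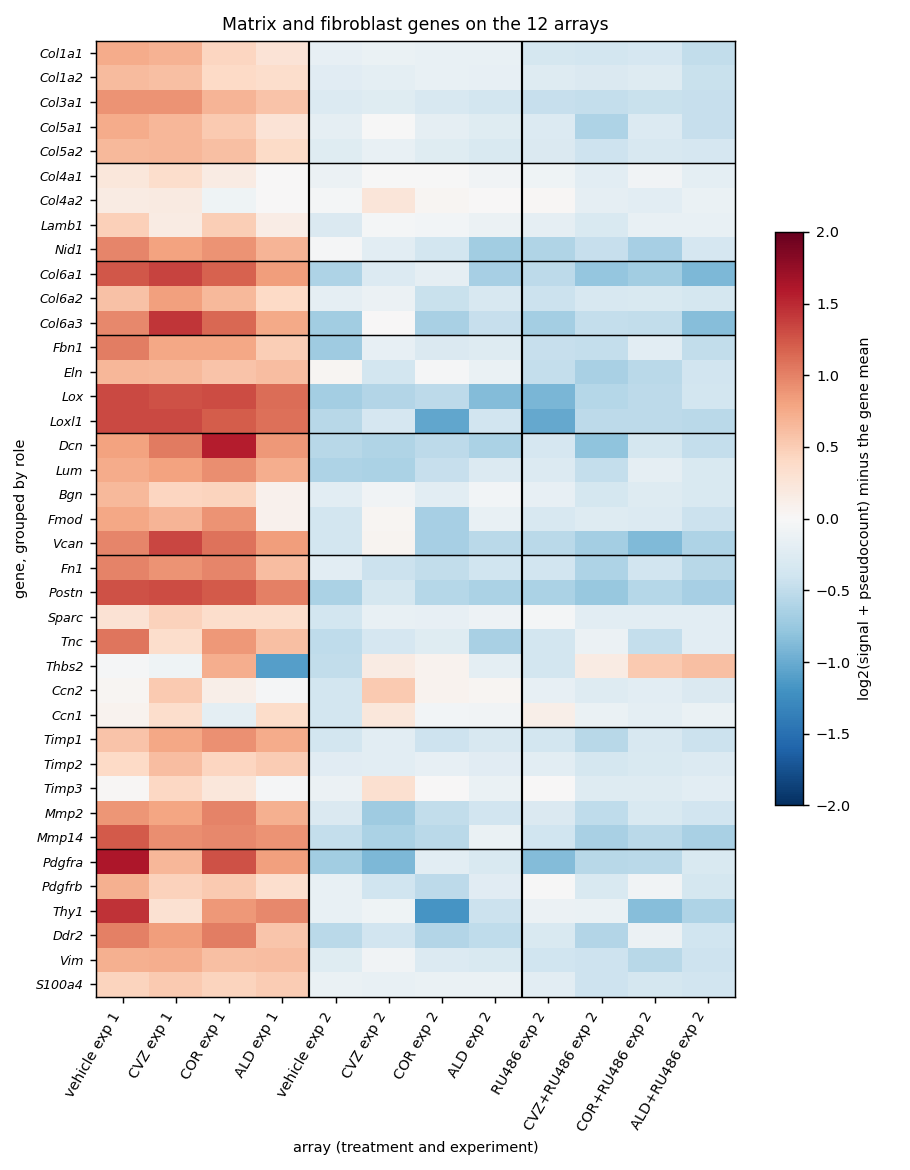
Signal of each of the 39 genes (rows, grouped by role) on each of the 12 arrays (columns), as log2 of signal plus pseudocount minus the mean of the gene over the arrays, red above and blue below. The 4 columns of the first experiment are mostly red and the 8 of the second mostly blue, while columns of one experiment differ little between treatments, and Col4a2, Thbs2, Ccn2, Ccn1 and Timp3 do not follow the split.

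Fibrillar collagens, the tensile fibres of the interstitium, were lower in 5 of 5 cases. Col3a1, the chain of type III collagen, had signals of 122, 121, 104 and 96.4 with vehicle, CVZ, COR and ALD in the first experiment and of 53.6, 54.6, 51.7 and 50.2 in the second. The sets did not overlap, and the difference was −1.07 ± 0.058 (SE; limma adjusted p = 4.9e-09). Col1a1 and Col1a2 encode the 2 chains of type I collagen, the most abundant collagen of scar. Col1a2 read 97.0, 94.5, 82.6 and 79.7 in the first experiment and 53.1, 54.8, 56.3 and 55.6 in the second, a difference of −0.68 ± 0.065. Col1a1 was also lower, by −0.68 ± 0.075. Col5a1 and Col5a2, chains of the type V collagen that starts fibrils, were lower by −0.70 and −0.81.

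Type VI collagen forms beaded filaments around cells, and the 3 chains listed were all called lower. Col6a1 had signals of 30.9, 33.3, 29.4 and 23.2 in the first experiment and 8.44, 10.7, 11.4 and 8.18 in the second, 3.01-fold lower. The differences were −0.88 for Col6a2 and −1.52 for Col6a3. Of the basement membrane genes 3 of 4 were lower. Nid1, the linker protein nidogen, was lower by −1.17, Lamb1, a laminin chain, by −0.45 and Col4a1, a type IV collagen chain, by −0.23 (limma adjusted p = 0.010). Col4a2, which pairs with Col4a1 in the same protein, differed by 0.00 (95% interval −0.15 to 0.16). Arrays of its 2 experiments overlapped, with signals of 19.4 to 23.4 in the first and 20.1 to 24.6 in the second.

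Genes of elastic fibres and crosslinking were lower in 4 of 4 cases. Lox, lysyl oxidase, which crosslinks collagen and elastin, read 9.61, 9.29, 9.50 and 8.34 in the first experiment and 2.35, 2.49, 2.63 and 2.05 in the second. It was 3.78-fold lower (log2 −1.92 ± 0.11, limma adjusted p = 8.0e-09). Its paralog Loxl1 was lower by −1.82, fibrillin-1 (Fbn1) by −1.12 and elastin (Eln) by −0.75. Proteoglycans, which bind collagen fibrils and growth factors, were lower in 5 of 5 cases: decorin (Dcn) by −1.65, versican (Vcan) by −1.44, lumican (Lum) by −1.30, fibromodulin (Fmod) by −0.90 and biglycan (Bgn) by −0.54. Dcn had signals of 20.1 to 34.1 in the first experiment and 7.31 to 7.93 in the second without RU486.

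Matricellular proteins, which modulate cells without bearing load, split into 4 lower and 3 not past the threshold. Postn, periostin, a marker of activated and developing cardiac fibroblasts, had signals of 78.4, 80.2, 76.1 and 65.6 in the first experiment and 21.0, 25.4, 21.8 and 20.9 in the second. That is 3.37-fold lower (−1.75 ± 0.065, limma adjusted p = 2.9e-10) with a wide gap between the sets. Fibronectin (Fn1) was lower by −1.26 and tenascin C (Tnc) by −1.16. Sparc, a collagen-binding glycoprotein, was lower by −0.56 on its brighter probe set, but its other probe set was called higher in the second experiment (0.21, limma adjusted p = 0.0088), so the direction of Sparc is not settled. Among those not past, Ccn2, also known as connective tissue growth factor, differed by −0.10 (95% interval −0.25 to 0.05) and its relative Ccn1 by −0.21 (−0.61 to 0.19). Thbs2, a thrombospondin, differed by 0.01 with a broad interval of −0.63 to 0.65 at signals of 0.340 to 1.38, around the array median.

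Enzymes that cut matrix and their inhibitors were lower in 4 of 5 cases. The collagenase-activating membrane proteinase Mmp14 was lower by −1.45 and the gelatinase Mmp2 by −1.31. Inhibitors of these enzymes differed by −1.08 for Timp1 and −0.70 for Timp2, while Timp3, the inhibitor that stays bound to matrix, differed by −0.14 (95% interval −0.30 to 0.02) and did not pass. Fibroblast receptors and cell markers were lower in 6 of 6 cases. Ddr2, a collagen receptor of fibroblasts, had signals of 8.51, 7.52, 8.60 and 6.19 in the first experiment and 2.88, 3.22, 2.78 and 2.93 in the second, 2.55-fold lower. Pdgfra, the PDGF receptor that marks resident fibroblasts, was lower by −1.62 and the surface protein Thy1 by −1.35. Pdgfrb, a receptor of pericytes and fibroblasts, was lower by −0.83. Signals of Thy1 and Pdgfrb were near the array median. Thy1 read 1.22 to 2.78 in the first experiment and 0.394 to 0.915 in the second without RU486. Pdgfrb read 2.26 to 2.94 and 1.21 to 1.58 in the same sets. Vim, the intermediate filament of mesenchymal cells, read 157, 159, 146 and 148 in the first experiment and 81.1, 91.6, 79.5 and 77.9 in the second, a difference of −0.89 ± 0.051. S100a4, a calcium-binding protein once called fibroblast-specific, was lower by −0.61.

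**Figure D2:**
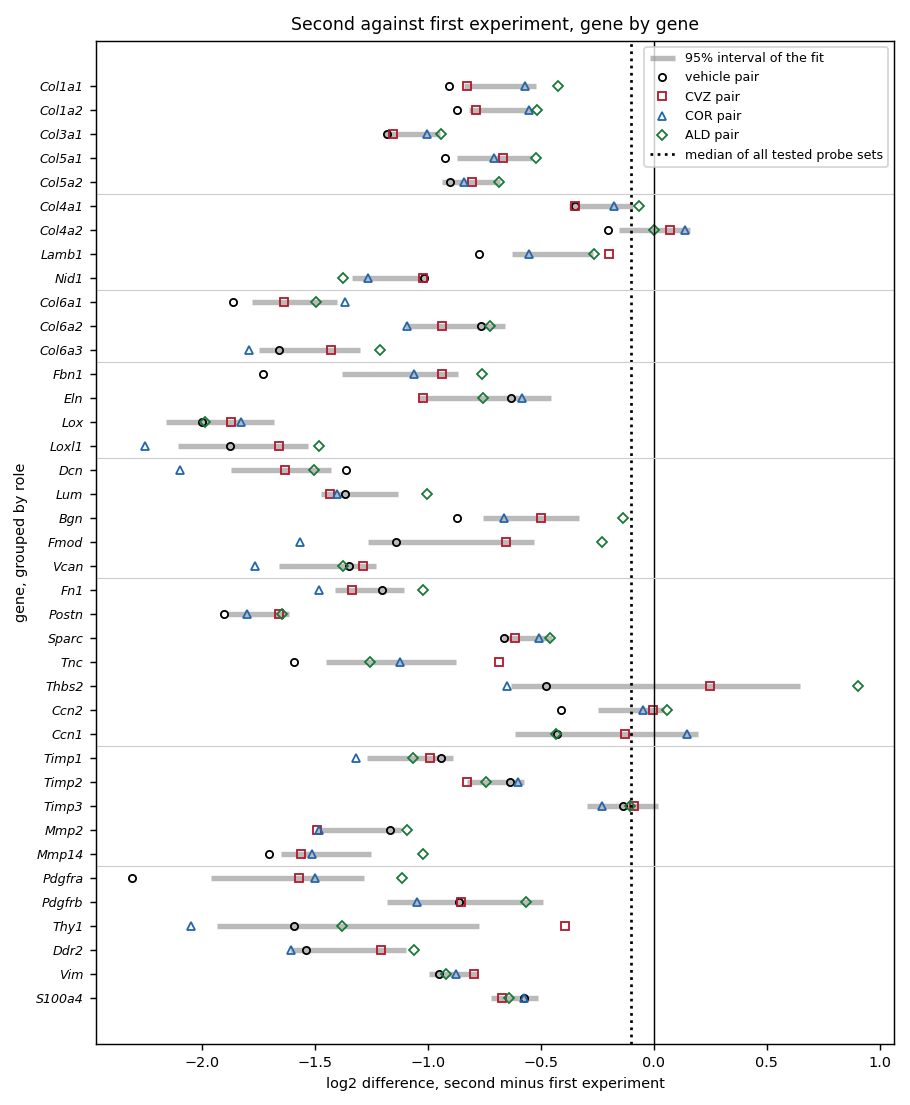
Log2 difference of the second minus the first experiment for each of the 39 genes (vertical axis), as the value in each treatment pair (open symbols) and the 95% interval of the fit (grey bars), with the median of all tested probe sets dotted. The intervals of 34 genes lie left of 0, from Lox at −1.92 to Col4a1 at −0.23, and those of Col4a2, Thbs2, Ccn2, Ccn1 and Timp3 cover 0.

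The counts moved with how arrays were scaled. The median of all tested probe sets was −0.10 as deposited, 0.03 after quantile normalization and 0.10 after trimmed-mean scaling, and the share of calls that were lower was 72.5%, 47.6% and 40.6% in that order. Relative to that median the 39 genes stood at −0.79 under all 3 scalings. The count called lower was 34, 32 and 33, with 2 (Col4a2 at 0.28 and Ccn2 at 0.16) called higher after quantile normalization and 1 (Col4a2 at 0.21) after trimmed-mean scaling. Col4a1 lost its call under both and its sign turned under quantile normalization (0.05), and Lamb1 lost its call under quantile normalization. Further probe sets were tested for 17 of the genes, and those of Nid1, Timp2 and Thy1 were not called (−0.23, −0.23 and −0.55), nor was 1 of the 3 for Vcan (−0.70). One further probe set of Timp3 was called lower (−0.34, limma adjusted p = 0.0032). For Col1a2 and Col5a2 the dimmer probe set gave a larger difference (−1.54 and −1.47).

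The summed signal of the 39 genes was 1410.3 to 1640.3 in the first experiment, 840.1 to 944 in the second without RU486 and 778 to 845 with RU486. Over the same sets the summed cardiomyocyte markers were 3502 to 3819, 3467 to 3787 and 3076 to 3408, which overlap between experiments without RU486. The ratio of the sums was 0.423 ± 0.0189 (SD, n = 4 arrays) in the first experiment, 0.248 ± 0.00406 (n = 4) in the second without RU486 and 0.254 ± 0.00605 (n = 4) with it. Each SD is over arrays of 4 different treatments, so it is not a spread of replicates. Bright probe sets weigh most in these sums. Of the 17 cardiomyocyte markers 4 were called higher and 6 lower in the second experiment (median −0.05), but 9 were called higher and 0 lower under quantile or trimmed-mean scaling, so their direction depends on the scaling. Other fibroblast markers, none of them among the 39 genes, were lower in 15 of 19 cases (median −1.08), among them Fbln2 by −1.77, Dpt by −1.65, Gpx8 by −1.27 and Fstl1 by −1.13. Of 9 smooth muscle genes 3 were called lower (Tagln by −1.30) and 1 higher. The counts called lower, beside 28.2% over all probe sets, were 4 of 8 for endothelial, 3 of 9 for macrophage, 1 of 6 for epicardial, 0 of 3 for Schwann cell and 2 of 2 for erythroid genes (Hbb by −1.70). Signals were 0.407 to 15.3 for endothelial, 0.148 to 11.9 for macrophage and 0.408 to 3.87 for epicardial genes. They were 0.347 to 3.37 for Schwann cell genes and 0.210 to 77.1 for the other fibroblast markers. Proliferation genes were lower in 16 of 19 cases (median −0.91). Their part in the matrix result was not tested.

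**Figure D3:**
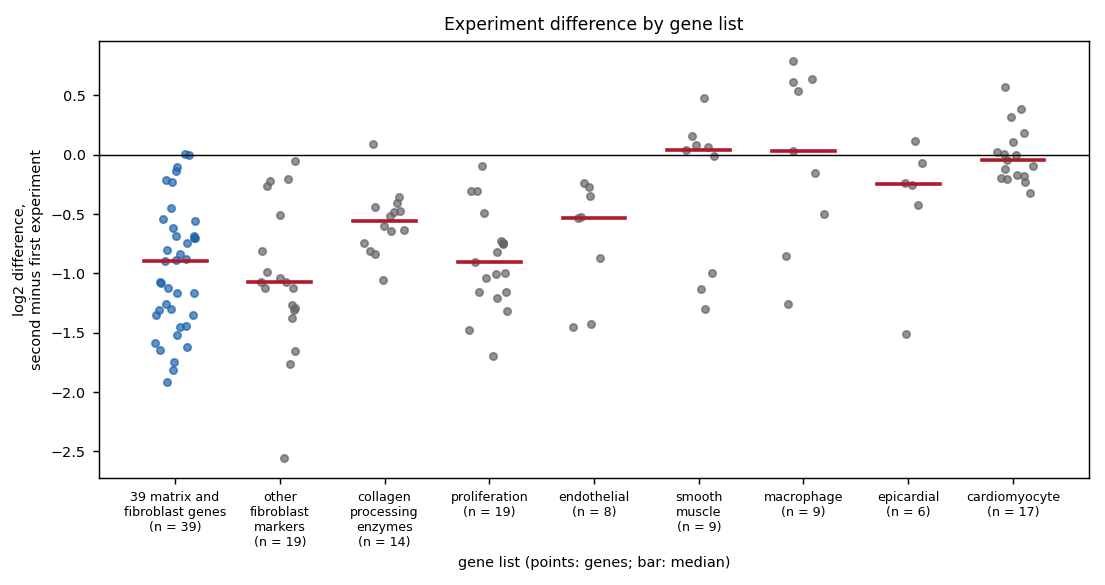
Log2 difference of the second minus the first experiment (vertical axis) for single genes (points) of each list, with the median as a bar. The 39 genes (median −0.90), the other fibroblast markers (−1.08) and the proliferation genes (−0.91) lie mostly below 0, while the cardiomyocyte markers (−0.05) lie around 0.

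Lists of genes that act around the matrix were read against the 28.2% of all tested probe sets that were lower in the second experiment and the 10.7% that were higher. Collagen processing enzymes were called lower in 13 of 14 tested cases (median −0.56), for example the prolyl hydroxylase subunit P4ha2 by −1.06, the collagen-folding cyclophilin Ppib by −0.64 and the procollagen enhancer Pcolce by −0.84. In TGF-beta signalling, the main profibrotic pathway, 10 of 15 genes were lower and 1 higher (median −0.38). The pathway inhibitor Skil differed by −1.09 and the latent binding protein Ltbp1 by −1.21, while the co-receptor Tgfbr3 was the gene called higher (0.84). Other matrix proteinases had 9 of 13 lower and 1 higher, with macrophage elastase Mmp12 at −2.02, Adamts1 at −1.26 and, as the gene called higher, Mmp11 at 0.77. Matrix receptors had 8 of 15 lower and 2 higher, with the integrin chains Itgb3 at −1.79 and Itgb1 at −0.69, and Itga5 and Dag1 as the 2 called higher (1.06 and 0.28). After quantile normalization the counts lower and higher were 11 and 0 for collagen processing, 6 and 2 for TGF-beta signalling, 9 and 3 for proteinases and 6 and 3 for receptors. After trimmed-mean scaling they were 10 and 0, 5 and 2, 9 and 4, and 7 and 3.

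Against this, 3 h of steroid changed few of the genes. With CVZ 3 of 39 genes rose and 0 fell (7.69% called), where 7.96% of all tested probe sets were called, 4.77% as higher. The share among the 39 genes was close to that background. With COR 0 of 39 were called, against 3.39% of all, and with ALD 0 of 39, against 0.95% of all; at an unadjusted limma p below 0.05 the counts were 6, 2 and 5 of 39 for CVZ, COR and ALD, against 18.2%, 13.1% and 9.15% of all tested probe sets. These comparisons share the vehicle arrays. Medians over the genes were 0.05, −0.02 and −0.13. The 95% interval lay within a 2-fold change either way for 35, 37 and 37 of the 39 genes. The widths rest on the experiment block and the variance trend, with 3 residual and 12.2 prior degrees of freedom. Col3a1 differed from vehicle by 0.01 with CVZ (95% interval −0.16 to 0.19), −0.14 with COR (−0.32 to 0.03) and −0.21 with ALD (−0.39 to −0.04), none past the threshold. After quantile normalization Col3a1 was called lower with ALD (−0.30, limma adjusted p = 0.043).

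The gene with the largest rise was Ccn2, a secreted matricellular protein induced by TGF-beta, stretch and serum through TEAD and other factors. Its signal was 74.5 and 56.1 with vehicle and 105 and 104 with CVZ, in the first and second experiment. COR gave 78.9 and 76.4 and ALD 71.6 and 74.6. Both CVZ arrays stood above all other arrays, and vehicle in the second experiment was the lowest of all 12. The rise with CVZ was 1.62-fold (log2 0.69 ± 0.098, limma adjusted p = 0.00016), 0.49 in the first experiment and 0.89 in the second. COR gave 0.26 (95% interval 0.06 to 0.47, limma adjusted p = 0.22) and ALD 0.18 (−0.03 to 0.39, limma adjusted p = 0.65), neither past the threshold, although without the vehicle array of the first experiment Ccn2 was called with COR (0.47, limma adjusted p = 0.0058). The call for CVZ stood without any one array of vehicle, CVZ, COR or ALD.

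**Figure D4:**
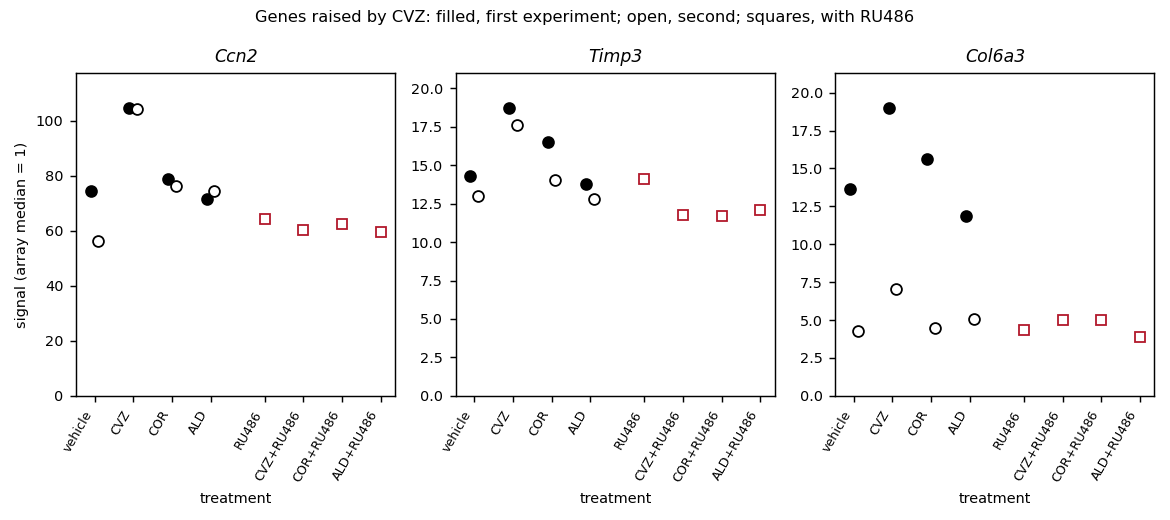
Signal (vertical axis, array median = 1) of the 3 genes called higher with CVZ, by treatment, with filled circles for the first experiment, open circles for the second and squares for the arrays with RU486. Ccn2 is near 105 on both CVZ arrays and between 56.1 and 78.9 on all others, Timp3 is highest with CVZ in both experiments, and Col6a3 is highest with CVZ within each experiment while the experiments lie apart.

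Timp3 rose with CVZ by 1.33-fold (0.41 ± 0.10, limma adjusted p = 0.020). Its signals were 14.3 and 13.0 with vehicle, 18.7 and 17.6 with CVZ, 16.5 and 14.1 with COR and 13.8 and 12.8 with ALD. The CVZ arrays were again the highest, and a further probe set of Timp3 gave the same rise (0.41, limma adjusted p = 0.035), while the other 2, dimmer ones gave 0.39 and −0.38 and were not called. Col6a3 rose too (log2 0.59 ± 0.15, limma adjusted p = 0.021), from 13.7 to 19.0 in the first experiment and from 4.29 to 7.01 in the second. On its other probe set, a dim one, the difference was −0.03. The calls of Timp3 and Col6a3 were lost when either vehicle array or either CVZ array was left out. Then Ccn2 was the 1 gene called without a CVZ array, joined by Fbn1 (0.55) without the first vehicle array and by Pdgfra (−1.03) without the second. None of the 3 calls with CVZ stood without the experiment block or without the variance trend.

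The genomic stretch just before the start of these 3 genes is shown because they are the members that rose with CVZ. The sequences are the 250 bases before the annotated start in RefSeq, build GRCr8, all on the minus strand, at chr1:22624615-22624864 for Ccn2, chr7:19459559-19459808 for Timp3 and chr9:98886959-98887208 for Col6a3. Letters in capitals mark matches to GGAATG, the core bound by TEAD factors, the only motif searched that matched any of them.
Ccn2: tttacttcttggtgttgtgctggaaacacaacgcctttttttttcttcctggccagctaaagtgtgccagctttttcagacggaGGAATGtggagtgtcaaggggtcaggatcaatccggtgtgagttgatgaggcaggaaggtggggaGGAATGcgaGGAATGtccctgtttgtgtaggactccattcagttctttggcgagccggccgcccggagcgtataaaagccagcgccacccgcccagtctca
Timp3: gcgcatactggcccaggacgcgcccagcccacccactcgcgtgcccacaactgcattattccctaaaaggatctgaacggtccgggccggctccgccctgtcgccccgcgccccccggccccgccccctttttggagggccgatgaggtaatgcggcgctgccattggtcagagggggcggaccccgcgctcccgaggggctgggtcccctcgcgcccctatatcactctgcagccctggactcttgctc
Col6a3: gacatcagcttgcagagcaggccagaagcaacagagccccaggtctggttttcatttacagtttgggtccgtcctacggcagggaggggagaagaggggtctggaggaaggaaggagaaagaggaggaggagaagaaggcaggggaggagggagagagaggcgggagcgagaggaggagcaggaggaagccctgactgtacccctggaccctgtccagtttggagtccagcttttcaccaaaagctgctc
Ccn2 held 3 matches, whose first bases lie 166, 101 and 92 bases before the start. Of 33469 promoters of the same length 12.1% had at least 1 match on either strand and 0.0807% (27 promoters) had at least 3. A promoter entry was found for 25 of the 39 genes, and 6 of these had a match, namely Ccn2, Ccn1, Loxl1, Sparc, Nid1 and Timp1. Motifs were searched on both strands. The full glucocorticoid response element (inverted copies of AGAACA, 3 bases apart) was in 0 of the 25 and in 0.012% of all promoters. Its core AGAACA, contained in the full element, was in 3 (Postn, Col5a1 and Lum) against 17.5% of all. The AP-1 motif TGANTCA was in 2 (Pdgfra and Col6a1) against 6.34%. A match describes the letters only, and the windows are short.

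Between ligands, ALD gave lower signals than CVZ for 4 of 39 genes and higher for 0, where 4.25% of all tested probe sets were called, 2.62% as lower. These were Ccn2 (−0.52, limma adjusted p = 0.0044), Timp3 (−0.45, 0.019), Col6a3 (−0.57, 0.042) and Vcan (−0.54, 0.043). These comparisons share the CVZ arrays, and Vcan had not passed the test with CVZ against vehicle (0.39, limma adjusted p = 0.13). Of these 4 calls 1 (Ccn2) stood without the CVZ array of the first experiment, 2 (Ccn2 and Col6a3) without the ALD array of the second, and 0 without the ALD array of the first or the CVZ array of the second. Without the ALD array of the first experiment the 1 gene called was Mmp14, which was higher with ALD (0.53, limma adjusted p = 0.042). At an unadjusted limma p below 0.05 there were 13 of 39 genes, against 14.1% of all probe sets. COR against CVZ gave 0 calls among the 39 (0.966% of all) and 7 genes at an unadjusted limma p below 0.05 (9.63% of all). Ccn2 was closest, at −0.43 (95% interval −0.64 to −0.22, limma adjusted p = 0.053), and it was called with a pseudocount of 1 (adjusted p = 0.026). ALD against COR gave 0 calls (0.295% of all; 4 genes at an unadjusted p below 0.05, against 6.2% of all). Since doses are not known, these are differences between the treatments as given.

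The counts with ALD differed between experiments, a difference that was not tested. In the first experiment 33 of 39 genes read lower with ALD than with vehicle (median −0.26). In the second 20 of 39 did (median 0.00). Each count sets a single ALD array against a single vehicle array, and the share over all tested probe sets was not computed. The summed cardiomyocyte markers read 3741 with vehicle and 3560 with ALD in the first experiment, and 3467 and 3475 in the second. Col1a2 read 97.0 with vehicle and 79.7 with ALD in the first experiment, but 53.1 and 55.6 in the second. Nid1 had the change with ALD closest to the threshold, −0.49 (95% interval −0.72 to −0.25, limma adjusted p = 0.053), with signals of 36.5 and 29.5 in the first experiment and 18.0 and 11.3 in the second.

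A few genes of the surrounding pathways were called with the glucocorticoids, where the share called over all tested probe sets was 7.96% with CVZ (4.77% as higher) and 3.39% with COR. The lists are small, and whether any of them held more calls than those shares was not tested. In TGF-beta signalling CVZ raised 2 of 15 genes, the inhibitor Skil (0.73) and the co-receptor Tgfbr3 (0.86), and lowered 1, the decoy receptor Bambi (−1.15 ± 0.16, limma adjusted p = 0.00012). COR lowered Smad3, a signal transducer of the pathway (−0.86, limma adjusted p = 0.036). Of 13 other matrix proteinases and inhibitors CVZ raised the aggrecan-cutting Adamts1 (1.03 ± 0.13, limma adjusted p = 3.7e-05) and Timp4 (1.27) and lowered Mmp15 (−0.73), and COR raised Timp4 (1.35). CVZ raised 2 of 15 matrix receptors, Itgb1 (0.59) and Sdc4 (0.69), 1 of 14 collagen processing enzymes, P4ha2 (0.56), and 2 of 19 other fibroblast markers, Gas6 (0.54) and Tcf21 (0.95). COR raised Gas6 (0.43), and ALD changed 0 genes of these lists.

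RU486 alone changed 0 of the 39 genes against vehicle (0.129% of all tested probe sets were called; 6 genes at an unadjusted limma p below 0.05, against 6.75% of all). With RU486 on top of a ligand, averaged over the 3 ligands, 5 of 39 genes fell and 0 rose, where 4.87% of all were called, 2.99% as lower. The genes were Ccn2 (−0.42 ± 0.077, limma adjusted p = 0.0037), S100a4 (−0.25), Vim (−0.24), Timp3 (−0.31) and Col6a1 (−0.37). Ccn2 read 60.4, 62.4 and 59.5 with CVZ+RU486, COR+RU486 and ALD+RU486 and 64.4 with RU486 alone, a range of 59.5 to 64.4 that lay below the signals with CVZ, COR and ALD but above vehicle (56.1) in the second experiment. In the fit, the vehicle and ligand means draw on both experiments, joined by an experiment term shared by all groups. The median of RU486 minus vehicle over the 39 genes was −0.06 in the fit. Within the second experiment alone it was 0.03.

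For S100a4 the 4 RU486 arrays read 94.3, 81.6, 85.2 and 83.7, below the 98.0 to 99.7 of the other second-experiment arrays. In all, 7 genes had every RU486 array below those 4 arrays (Col1a1, Col1a2, Col3a1, Col5a1, Eln, Vim and S100a4), or 17.9%, against 3.6% of all tested probe sets. Cardiomyocyte markers moved the same way: 10 of 17 fell with RU486 on top of a ligand (median −0.21, for example Atp2a2 by −0.30), as did 3 of 9 smooth muscle genes, and 7 of 17 cardiomyocyte markers had every RU486 array lowest. The matrix genes with every RU486 array lowest were 3 of 39 after quantile normalization (7.69%, against 3.68% of all) and 6 of 39 after trimmed-mean scaling (15.4%, against 4.16%). The cardiomyocyte markers of that kind were 0 and 9 of 17 in that order. After quantile normalization 1 cardiomyocyte marker was called lower, and of the matrix genes Ccn2, Timp3 and Col6a1 were called but S100a4 and Vim were not. The share of calls that were lower, over all probe sets, was 61.4% as deposited, 49.6% after quantile normalization and 11.5% when arrays were scaled to the cardiomyocyte markers. Under that last scaling only Ccn2 (−0.22) was called lower, and Lum (0.34) was called higher. Without the CVZ+RU486 array 0 of the 39 genes were called, without the CVZ array of the second experiment 1, without either COR array of the second experiment (COR or COR+RU486) 2, and without the CVZ array of the first or the ALD array of the second 3.

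The response to the ligands with RU486, against RU486 alone, had 0 calls among the 39 genes and 0 among all 18625 probe sets (limma; 3 genes and 462 probe sets at an unadjusted p below 0.05). The test of whether RU486 changed the mean ligand response also called 0 of the 39 (1.09% of all; 4 genes at an unadjusted p below 0.05, against 7.73% of all). For Ccn2 that difference was −0.46 (95% interval −0.76 to −0.17, limma adjusted p = 0.20) and for Timp3 −0.43 (−0.74 to −0.12, limma adjusted p = 0.32). Without the vehicle array of the first experiment the difference for Ccn2 was called (−0.67, limma adjusted p = 0.0055). In single arrays CVZ changed Ccn2 by 0.89 without RU486 and by −0.09 with it, in the second experiment. In the pathway lists, RU486 on top of a ligand raised Bambi (0.69), Smad3 (0.65) and Mmp15 (0.53) and lowered Skil (−0.37), Adamts1 (−0.42) and Pcolce (−0.36). These comparisons share the ligand arrays with those against vehicle.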

How the data were processed

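The authors made the deposited intensity values, which are linear, with MAS5, per the submitters' processing notes. Tested on the files, each of the 12 arrays had been divided by its own median. Other upstream steps are not given in the sources used here. Of 31099 probe sets 57 controls were set aside, 20832 had 1 gene symbol, 436 several and 9831 none in the array annotation, and symbols were updated through Entrez IDs to RefSeq. A pseudocount of 0.0696 (10th percentile) was added, log2 taken, and probe sets with a mean above the 40th percentile tested. Models were fitted in R 4.3.3 with limma 3.58.1, using 8 groups, the experiment as a block and a variance trend, giving 3 residual and 12.2 prior degrees of freedom. Each RU486 group, a single array, borrows its spread from the other groups. The vehicle and ligand means it is set against draw on both experiments through the shared experiment term. Arrays of one experiment deviated together (correlation of 0.512 to 0.567), and the labels tie each to its experiment. There were 11 comparisons. Arrays have no depth, and their number limits the precision. The steps were run on simulated data with independent noise on each array, which leaves out the shared deviations of the real arrays. Members, lists, the naming rule and tests were chosen with earlier results of these data known. By that rule signals of every array are given for at most 3 called members per role and up to 2 not called, and up to 4 called genes per other list, by smallest adjusted p; a few single genes (the calls opposite to their list, and Nid1 with ALD) were added after their values were seen. The alternatives were other pseudocounts, filters, scalings and probe sets, no block, no trend, fewer arrays, and each array left out in turn.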

Additional observations from a re-analysis of the deposited data

How the results depend on the processing

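The count of matrix genes lower in the second experiment stayed within 1.5 times of 34 under every alternative run, and was 33 to 34 with any one array left out. The counts by treatment were small and moved more. Without the replicate block 0 genes were called with CVZ against vehicle, with ALD against CVZ and with RU486 on top of a ligand, and without the variance trend these were also 0, 0 and 0, against 3, 4 and 5. With ALD against vehicle, where 0 were called, 2 (Col3a1 and Nid1) were called lower after quantile normalization and 1 (Nid1) with a pseudocount of 1, a filter at the 60th percentile, trimmed-mean scaling or the 8 paired arrays alone. With COR against CVZ, also 0, 1 was called under each of these 5 and with the second-highest probe set. With ALD against CVZ 2 were called without a filter or with the second-highest probe set and 1 when scaled to cardiomyocyte markers, an alternative chosen after seeing the data. With RU486 on top of a ligand 1 was called without a filter, 3 after quantile normalization and 2 when scaled to cardiomyocyte markers. The second experiment alone allowed only 1 RU486 effect pooled over vehicle and ligands (4 arrays against 4), which called 0 and stands in for both RU486 comparisons. Ligands under RU486 and the interaction were not run there. With any one array left out the counts were 1 to 3 for CVZ against vehicle, 0 to 1 for COR and for ALD against vehicle, 0 to 1 for COR against CVZ, 0 to 5 for ALD against CVZ, 0 to 7 for RU486 on top of a ligand and 0 to 1 for the interaction, the lone array of a group being assumed to vary like the others. The 1 call arose without the first vehicle or second COR array for COR, without the first ALD array for ALD, without any vehicle or ALD array for COR against CVZ, and without the first vehicle array for the interaction. Signs turned for Col6a3 with CVZ (−0.031) and Sparc between experiments (0.21) on the second-highest probe set, and for Col4a1 between experiments after quantile normalization (0.047). The cause was not tested. With 1 or 2 arrays a group, a change that misses the threshold is not shown to be absent.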
